A study of Rattus norvegicus with 12 samples.

Results

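The comparison described here set dorsal root ganglia taken 9 h after sciatic nerve resection against ganglia taken 6 h after it, so it addresses what changed in the ganglion over the last 3 h of the series. It rests on 6 of the 12 arrays of the series, 3 at each of these times. All animals were male Sprague-Dawley rats. Under trichloroacetaldehyde monohydrate, magnesium sulfate and sodium pentobarbital, a piece of the left sciatic nerve was cut out at the mid-thigh, and the L4-6 ganglia were collected 0.5, 3, 6 or 9 h later. The 24 rats formed 4 groups of 6. Which rats contributed to which array is not stated, so the p-values below measure the spread between these samples, which may be partly technical. Every group was injured and anaesthetised, and no group of uninjured rats is labelled. A difference between 9 h and 6 h is therefore a difference between 2 stages after surgery and not a response measured against intact tissue.

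The dorsal root ganglion holds the cell bodies of sensory neurons, wrapped by satellite glia, together with Schwann cells, vessels and resident macrophages. When a peripheral axon is cut, the loss of signals from the target and signals carried back along the axon switch on a set of transcription factors in the cell body, with Atf3, Jun and Sox11 among the best known, and these precede the neuropeptide and growth programme of the following days. Surgery and anaesthesia also raise glucocorticoids, and ganglion cells carry a circadian clock whose output genes change through the day.

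A level is here the log2 signal of a gene's probe minus the 75th percentile of its array, so that 0 marks a bright gene and -4 a dim one. Genes were called at a Benjamini-Hochberg adjusted p under 0.05 in a limma fit over all 12 arrays. Of 21310 genes tested, 4391 (20.6%) were called, 2804 (13.2%) higher and 1587 (7.45%) lower at 9 h than at 6 h. Most differences were small: the median size was 0.46 among the genes called higher and -0.43 among those called lower, and 719 of the called genes differed by at least 1 on the log2 scale, 516 higher and 203 lower. Of all genes, 8669 (40.7%) had 3 arrays of 9 h that did not overlap the 3 arrays of 6 h, 5664 (26.6%) with 9 h above and 3005 (14.1%) with 9 h below. The 6 h mean was the lowest of the 4 times for 2032 (72.5%) of the genes called higher. Among those higher by at least 1 it was lowest for 467 (90.5%), so many of these rises include a drop at 6 h. Over all genes, 44.6% had the 6 h mean as the extreme of the 4 on the side away from 9 h. The 9 h mean was the highest for 2364 (84.3%) of the genes called higher, and the lowest for 888 (56.0%) of those called lower. Among genes lower by at least 1 it was the lowest for 56 (27.6%). Over all genes, 51.2% had the 9 h mean as the extreme of the 4 in the direction of their difference. The 9 h arrays lay above all others for 1430 (51.0%) of the genes called higher and 8.16% of all genes. They lay below all others for 27.6% of those called lower and 3.52% of all genes.

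These totals moved with the processing. Background correction by normexp with an offset of 50, in place of the scanner's own, gave 319 called genes, 81 higher and 238 lower. The median SE was then 0.146 in place of 0.089. Of the genes named below, Atf3, Gadd45a, Cyp4a1, Car9, Dbp, S100b and Serpinb6b stayed called with normexp, and the other calls named below lost the threshold. In that limma fit the adjusted p was 0.977 for Nr1d2, 0.905 for Brwd3 and 0.878 for Gclm, against 0.255 for Sox11 and 0.0532 for Jun. Scaling the arrays to their median shifted the median difference of all genes from 0.053 to -0.155, and turned the split to 1193 higher and 6177 lower. Counts of list members after median scaling, given below, stand beside these totals over all 21310 genes. With quantile scaling the split was 1868 to 2668, and with cyclic loess 1941 to 2198. Leaving out 6 h replicate 3 lowered the counts to 1710 higher and 1039 lower. The 3 arrays of 9 h shared 1 slide and 1 scan day that held no other array, and the 6 h arrays lay on 2 other slides scanned on another day, so time and slide or scan day cannot be told apart.

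**Figure D1:**
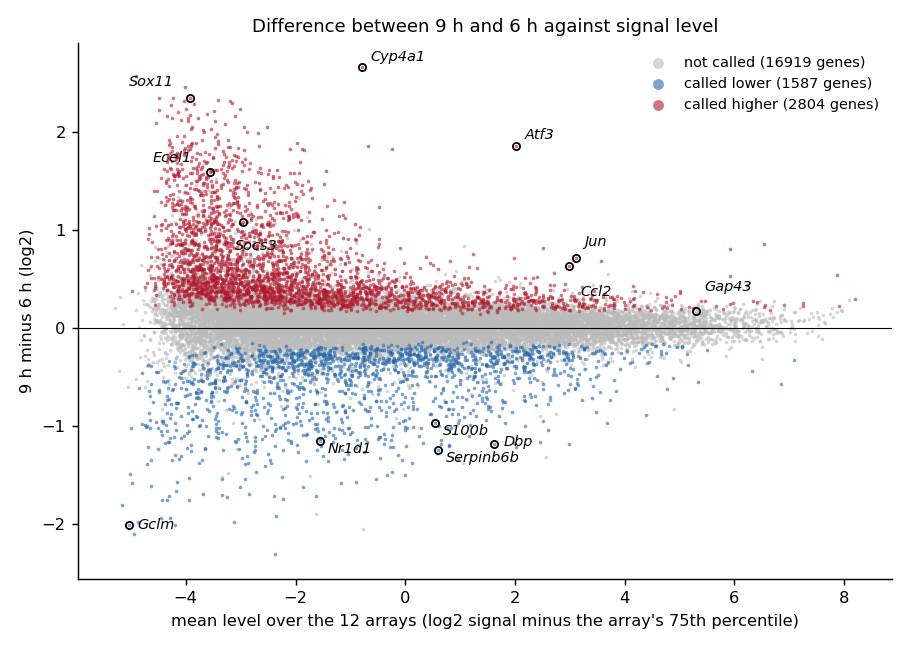
Each point is 1 of the 21310 genes, with its mean level over the 12 arrays on the horizontal axis and the 9 h minus 6 h difference on the vertical axis, both on the log2 scale; red and blue mark the genes called higher (2804) and lower (1587), and circles mark genes named in the text. Large increases gather among dim genes at the left, while Atf3 and Cyp4a1 stand apart at higher levels.

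The share of called genes varied with the signal and with the probe. With genes split into 4 bins by rank, in the dimmest bin (levels -5.28 to -2.58) 25.5% were called higher and 6.89% lower, against 4.88% and 5.82% in the brightest bin. Probes of genes called higher held 48.0% G and C on average, those of genes called lower 39.8% and those of the others 43.0%. In the bin with the most G and C, 25.8% of genes were called higher and 3.98% lower, and in the bin with the least, 4.45% and 11.9%. When each array's trend over probe GC content and level was removed, an alternative chosen after the data were seen, 3979 genes were called higher and 1391 lower, and 3121 of the 4391 calls were made again in the same direction. The part of these trends in single genes was not tested further, and for called genes the value after the trend was removed is given wherever it differed by over 1.5 times or ended the call.

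**Figure D2:**
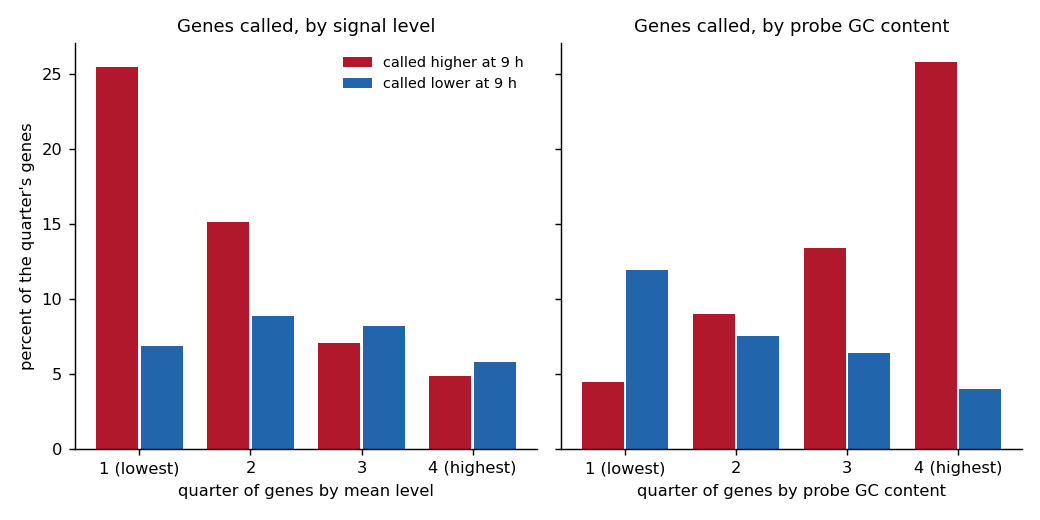
Bars give the percent of genes called higher (red) and lower (blue) at 9 h in each of 4 bins of the 21310 genes, ordered by mean level (left) and by the GC content of the probe (right). The share called higher falls from 25.5% to 4.88% with rising level and climbs from 4.45% to 25.8% with rising GC content.

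Nerve injury and regeneration genes called at 9 h were all higher than at 6 h. Of 47 tested, 10 (21.3%, against 13.2% of all genes) were called higher and 0 lower, 37 differences were above 0, and the median was 0.16 against 0.053 over all genes. After median scaling 7 were called higher and 4 lower. Atf3, the stress-induced bZIP factor that marks axotomised sensory neurons, had levels of 1.53, 1.89 and 1.71 at 6 h and 3.63, 3.40 and 3.64 at 9 h. The 9 h arrays lay far above every other array of the series, whose highest was 2.17 at 0.5 h. The difference was 1.85 (SE 0.21, 3.60-fold, adjusted p = 0.000155), read by a probe at chr13:107191691-107191749 on the rn4 assembly. Atf3 stayed called under all alternatives run, with the largest adjusted p at 0.00545.

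Sox11, a SoxC factor needed for axon regrowth, rose from levels of -5.17, -4.60 and -4.83 at 6 h to -2.44, -2.64 and -2.50 at 9 h. All 3 arrays of 9 h again exceeded the other 9, but the gene was dim throughout. Its means of -4.07 at 0.5 h and -4.27 at 3 h lay above the 6 h mean of -4.87. Its difference of 2.34 (SE 0.16, 5.07-fold, adjusted p = 7.84e-06; probe at chr6:45142098-45142157) was the third largest among genes with a proper symbol. Jun, the AP-1 partner of Atf3, read 2.90, 2.97 and 2.85 at 6 h and 3.63, 3.54 and 3.69 at 9 h, a rise of 0.71 (SE 0.08, 1.64-fold, adjusted p = 0.000153). Gadd45a, a stress and DNA demethylation factor induced in injured neurons, rose by the same amount, from 1.92, 1.72 and 1.77 to 2.53, 2.52 and 2.51 (SE 0.08, adjusted p = 0.000148). For both genes the 9 h arrays were above all 9 others.

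Among genes that act further downstream, Ecel1, a membrane endopeptidase of injured neurons, went from -4.45, -3.86 and -4.14 to -2.56, -2.59 and -2.54 (difference 1.59, SE 0.18, adjusted p = 0.000142). Reg3b, a secreted lectin induced by cytokines of the interleukin-6 family, read -1.04, -0.83 and -1.62 at 6 h and -0.12, 0.00 and 0.07 at 9 h. The rise was 1.15 (SE 0.26, adjusted p = 0.0111). Smad1, the BMP effector tied to axon growth, rose by 0.36 (SE 0.08, adjusted p = 0.00974), and Flrt3, an adhesion protein induced by axotomy and named here after its value was seen, by 0.30 (SE 0.07, adjusted p = 0.0135). Both of these lost the call after median scaling, to 0.16 (adjusted p = 0.182) and 0.09 (adjusted p = 0.406). The other probe of Smad1 read 0.20 (adjusted p = 0.2385).

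Genes of the later programme did not pass the same test. Gap43, the growth cone protein, read 5.31, 5.20 and 5.15 at 6 h and 5.54, 5.27 and 5.36 at 9 h, and the groups overlapped (difference 0.17, SE 0.08, adjusted p = 0.167). With the GC and level trend removed it was called, at 0.23 (adjusted p = 0.0303). The neuropeptides galanin (Gal, -0.06, SE 0.10, adjusted p = 0.724) and Vgf (0.07, SE 0.08, adjusted p = 0.595) overlapped between times, and Npy ranged from 1.84 to 3.76 over the 6 h arrays and from 1.78 to 2.56 over those of 9 h. Hspb1, the small heat shock protein of injured neurons, differed by 0.16 (SE 0.09, adjusted p = 0.240). Bdnf differed by 0.17 (SE 0.11, adjusted p = 0.300), while a second probe of the gene was past the threshold at 0.30 (SE 0.09, adjusted p = 0.0435).

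**Figure D3:**
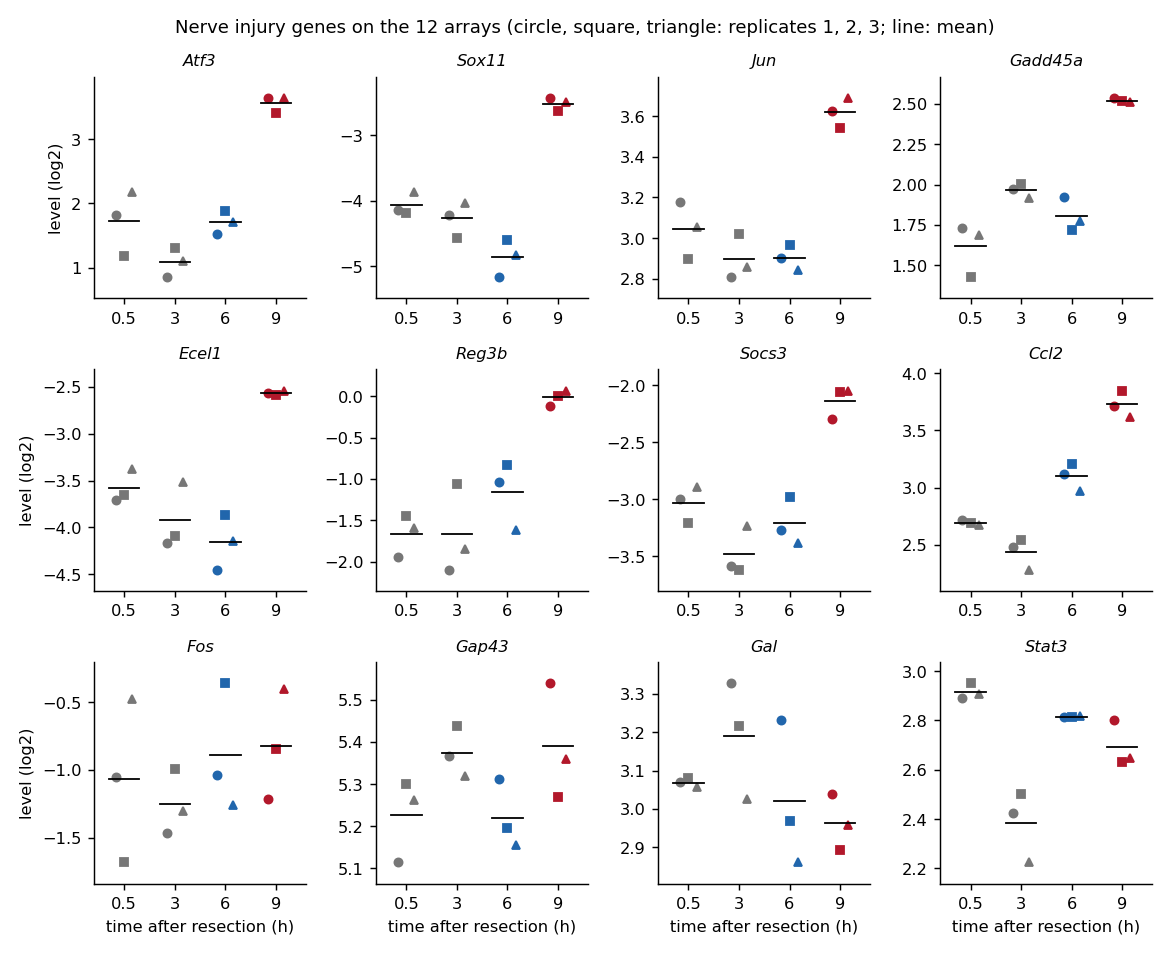
Levels (log2, vertical axis) of 12 nerve injury genes on each of the 12 arrays against the time after resection (h); symbols are replicates, black lines the means, grey 0.5 h and 3 h, blue 6 h and red 9 h. For Atf3, Sox11, Jun, Gadd45a, Ecel1, Reg3b, Socs3 and Ccl2 the 3 red points lie above all others, while Fos, Gap43 and Gal overlap and the 3 h points of Stat3 lie lowest.

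Of 40 immediate early genes tested, 4 (10%, against 13.2% of all genes) were called higher and 1 lower, with a median of 0.07, and after median scaling 2 were higher and 10 lower. Besides Atf3 and Jun the increases were Rgs2, a brake on G protein signalling (0.38, SE 0.05, adjusted p = 0.000295), and the kinase Plk3 (0.35, SE 0.09, adjusted p = 0.0243). Rgs2 lost the call narrowly after median scaling (adjusted p = 0.0520), and Plk3 lost it there (adjusted p = 0.299) and without 6 h replicate 2 or 3 or 9 h replicate 2 or 3 (adjusted p from 0.0636 to 0.0884). Fos, the classic activity marker, ranged from -1.26 to -0.36 at 6 h and from -1.22 to -0.41 at 9 h (difference 0.07, SE 0.32, adjusted p = 0.908). Egr1 differed by -0.36 (SE 0.18, adjusted p = 0.198), with -0.56 after median scaling (adjusted p = 0.0321) and -0.09 with the GC and level trend removed (adjusted p = 0.765).

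Among 23 cytokine, chemokine and adhesion genes 4 (17.4%, against 13.2% of all genes) were called higher and 0 lower. All 4 encode chemokines, while other chemokine genes of the list, such as Ccl3, Ccl5, Cxcl1 and Cxcl10, were not called; the median of the list was 0.03, and -0.07 after quantile scaling. Ccl2, the monocyte attractant that injured neurons release, climbed from 3.12, 3.21 and 2.98 to 3.72, 3.85 and 3.62 (difference 0.63, SE 0.09, adjusted p = 0.000528), with the 6 h arrays already above those of 0.5 h and 3 h. Cxcl3, a neutrophil attractant, rose by 1.76 (SE 0.23, adjusted p = 0.000347) from levels of -4.92, -4.42 and -4.71, and Cx3cl1, the neuronal ligand for microglia and macrophages, by 0.67 (SE 0.11, adjusted p = 0.00155). Ccl7, a relative of Ccl2, rose by 0.90 (SE 0.25, adjusted p = 0.0257), a call lost without 6 h replicate 1 or 3 or 9 h replicate 2 (adjusted p from 0.0703 to 0.102), though its second probe gave 0.91 (adjusted p = 0.0222). Ccl11, an eosinophil attractant outside that list and among the 12 largest decreases, fell by 1.32 (SE 0.28, adjusted p = 0.00795). Il6 was not tested because it was well above background on 0 of the 3 arrays of 6 h and 2 of those of 9 h.

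The STAT3 and acute phase genes, which respond to such cytokines, had 6 of 23 members called higher (26.1%, against 13.2% of all genes) and 1 lower, with a median of 0.17. Quantile scaling left 4 higher and 2 lower and median scaling 4 higher and 4 lower. Socs3, the feedback inhibitor of cytokine receptors, read -3.27, -2.98 and -3.38 at 6 h and -2.30, -2.06 and -2.05 at 9 h. The difference was 1.07 (SE 0.14, adjusted p = 0.000282; probe at chr10:107958703-107958762), and 0.67 with the GC and level trend removed (adjusted p = 0.000711). Cish, another feedback inhibitor of the same family, rose by 0.66 (SE 0.13, adjusted p = 0.00413), and Il4ra, the interleukin-4 receptor chain, by 0.63 (SE 0.13, adjusted p = 0.00515; 0.39 with the trend removed). Stat3 itself did not follow: its levels were 2.81, 2.82 and 2.82 at 6 h and 2.80, 2.63 and 2.65 at 9 h (difference -0.12, SE 0.07, adjusted p = 0.272), its second probe read 0.26 (adjusted p = 0.121), and the difference was -0.33 after median scaling (adjusted p = 0.0160) and 0.05 with the GC and level trend removed (adjusted p = 0.469). Nfkbia, the inhibitor of NF-kappaB and one of its own targets, rose by 0.41 (SE 0.09, adjusted p = 0.00849; 0.20, adjusted p = 0.106, after median scaling) from the 6 h low, still below its 0.5 h and 3 h levels.

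The proximal promoter of Reg3b is shown because the gene rose beside Socs3 and belongs to the same cytokine-responsive list. It comes from the RefSeq table for GRCr8 (chr4:112419526-112419775, plus strand, the 250 bases before the gene's start), and capitals mark the single match to TTCNNNGAA, the general form of a STAT site, searched on both strands.

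Reg3b: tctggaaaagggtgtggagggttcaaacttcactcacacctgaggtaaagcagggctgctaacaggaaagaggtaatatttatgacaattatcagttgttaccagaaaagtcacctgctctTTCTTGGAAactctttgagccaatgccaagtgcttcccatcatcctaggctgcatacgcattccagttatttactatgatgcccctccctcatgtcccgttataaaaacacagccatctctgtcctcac

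The match begins at position -129 relative to the start. The same letters occur in 7.57% of the 27456 promoters of this length in the table, and the window of Socs3 holds none. They also occur in the windows of Dbp, at position -69, and Nr1d1, at position -98, which both fell. Atf3 and Jun are not shown, as the table used here does not list them.

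Clock genes changed in both directions. Of 18 core clock and output genes tested, 5 (27.8%, against 7.45% of all genes) were called lower and 3 (16.7%, close to the 13.2% of all genes) higher. The same counts came from quantile and cyclic loess scaling, with 7 lower and 2 higher after median scaling. Dbp, a bZIP output factor driven directly by the clock, had steady levels from 0.5 to 6 h, with 1.88, 1.97 and 1.91 at 6 h, and then read 0.54, 1.23 and 0.41 at 9 h. The 9 h arrays were below all 9 others, and 9 h replicate 2 lay nearest to them. The fall of 1.19 (SE 0.18, 2.29-fold lower, adjusted p = 0.000837) stayed called under all alternatives, with the largest adjusted p at 0.0405. Nr1d1, the nuclear receptor REV-ERB alpha that represses Bmal1, fell by 1.16 (SE 0.23, adjusted p = 0.00473), from -1.75, -1.49 and -1.52 to -3.0, -2.06 and -3.18. Its paralogue Nr1d2 fell by 0.77 (SE 0.13, adjusted p = 0.00199), again to below all other arrays.

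Per2, a repressor arm of the clock, fell by 0.54 (SE 0.13, adjusted p = 0.0123), from 0.39, 0.44 and 0.41 to -0.29, 0.15 and -0.24, but its 3 h levels were lower still; with the trend removed the difference was -0.39 and lost the call (adjusted p = 0.0622). Usp2, a clock-driven deubiquitinase, fell by 0.46 (SE 0.14, adjusted p = 0.0449), a call lost without any 1 of 7 arrays, with adjusted p values up to 0.147. Arntl (now Bmal1), the activator that the REV-ERB receptors repress, instead rose from -0.28, -0.30 and -0.36 to 0.37, -0.08 and 0.33. The difference was 0.52 (SE 0.12, adjusted p = 0.0124), and 0.31 after median scaling (adjusted p = 0.0720). Its 3 h levels of 0.01, 0.37 and 0.26 were as high as those of 9 h, and its 6 h mean was the lowest. Nr1d1 too was higher at 3 h than at 6 h (means -0.57 and -1.59), so from 3 h to 6 h both genes fell. A link between them was not tested. Nfil3, the repressor that competes with Dbp for its sites, rose by 0.83 (SE 0.11, adjusted p = 0.000299), and the kinase Csnk1e, which acts on PER proteins, by 0.50 (SE 0.10, adjusted p = 0.00403). The other probe of Csnk1e read 0.09 (adjusted p = 0.566). For Dbp, Nr1d1, Nr1d2, Per2 and Arntl alike, 9 h replicate 2 was the array of 9 h closest to 6 h. Per1 spread from -2.10 to -0.91 over the 9 h arrays and was not called (0.38, SE 0.28, adjusted p = 0.361), but without 9 h replicate 1 it was (0.74, adjusted p = 0.0246). The hours at which ganglia were collected are not stated, so hours since surgery and hour of the day cannot be told apart.

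**Figure D4:**
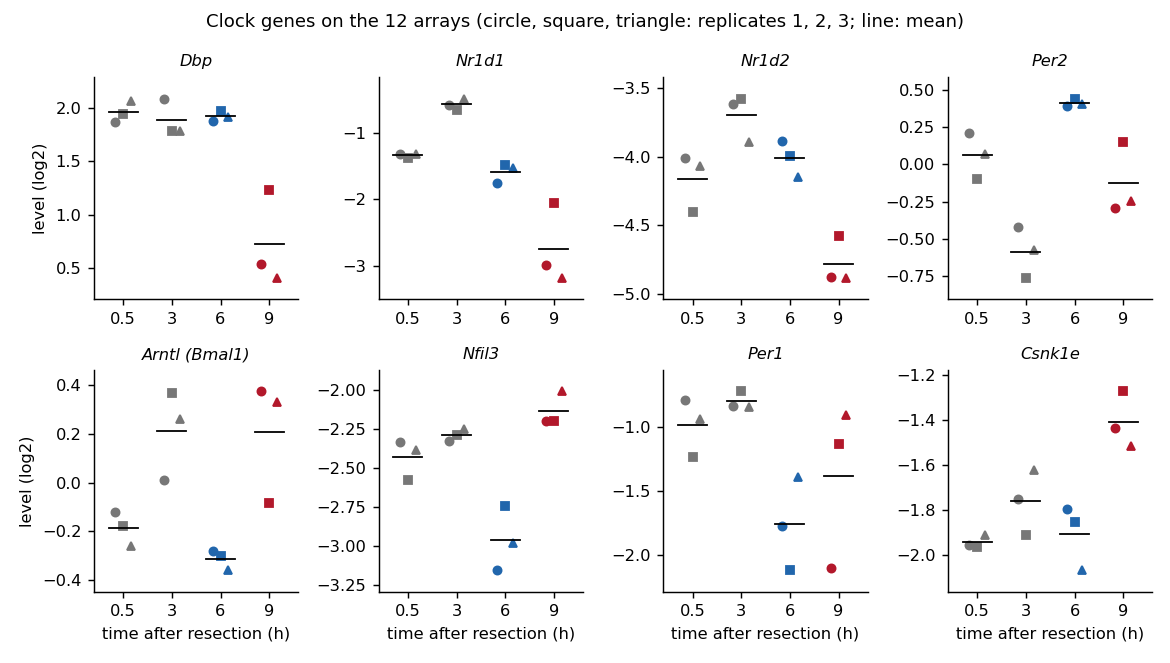
Levels (log2, vertical axis) of 8 clock genes on the 12 arrays against the time after resection (h); symbols are replicates, black lines the means, grey 0.5 h and 3 h, blue 6 h and red 9 h. At 9 h Dbp, Nr1d1 and Nr1d2 are below every other array and Nfil3 and Csnk1e above, while 9 h replicate 2 (square) is nearest to 6 h for Dbp, Nr1d1, Nr1d2, Per2 and Arntl.

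Because several clock genes changed in the same interval, the promoters of Nr1d1 and Per2 are shown, the 2 of the 8 called clock genes whose 250 bases before the start held a match to an E-box (CACGTG) or a D-box (TTATGTAA), the letters read by Bmal1 with its partner and by Dbp and Nfil3. Both come from RefSeq's GRCr8 table, Nr1d1 at chr10:84229455-84229704 and Per2 at chr9:99496994-99497243, each on the minus strand. Capitals mark the E-box in Nr1d1 and the D-box in Per2, and the STAT-type match in Nr1d1 is left in lower case.

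Nr1d1: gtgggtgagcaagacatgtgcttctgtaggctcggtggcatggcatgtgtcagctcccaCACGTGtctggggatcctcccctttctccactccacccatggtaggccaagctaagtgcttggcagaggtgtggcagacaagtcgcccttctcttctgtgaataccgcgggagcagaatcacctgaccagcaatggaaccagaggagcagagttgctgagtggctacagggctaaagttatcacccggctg

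Per2: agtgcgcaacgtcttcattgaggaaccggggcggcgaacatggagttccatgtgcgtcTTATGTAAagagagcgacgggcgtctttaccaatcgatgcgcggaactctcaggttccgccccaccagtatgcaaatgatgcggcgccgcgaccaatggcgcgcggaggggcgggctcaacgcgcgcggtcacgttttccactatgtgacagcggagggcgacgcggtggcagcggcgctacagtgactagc

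Searched on both strands, the E-box letters occur in 5.73% and the D-box letters in 0.845% of all 27456 promoters of this length. For both sites only these exact letters were searched, so variant forms were not counted. Relative to the start, the match begins at position -191 in Nr1d1 and -192 in Per2.

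Several genes of sterol synthesis rose by small amounts. Of 25 cholesterol synthesis genes, 10 (40%, against 13.2% of all genes) were called higher and 1 lower, 24 differences were above 0, and the median was 0.22. Quantile scaling called 9 higher and cyclic loess 10, but median scaling only 1, with a median of 0.01, and without 6 h replicate 3 the count was 7. Dhcr7, which makes cholesterol in the last step, read 2.67, 2.49 and 2.50 at 6 h and 3.08, 2.92 and 2.96 at 9 h, above all other arrays (difference 0.44, SE 0.07, adjusted p = 0.00164). Mvd, of the mevalonate steps, rose by 0.44 (SE 0.09, adjusted p = 0.00595), and Pmvk, Mvk and Acat2, which act earlier in the same chain and are named after their values were seen, rose by 0.32, 0.28 and 0.29. Insig1, the sterol sensor and a target of SREBP factors, rose by 0.35 (SE 0.08, adjusted p = 0.0139), and its 3 other probes all read above 0, 1 of them past the threshold (0.19, adjusted p = 0.0351). The call of Insig1 was lost as the mean of its probes (0.20, adjusted p = 0.0588) and without 6 h replicate 2 (adjusted p = 0.0541). Fdft1, squalene synthase, was the member called lower (-0.18, SE 0.04, adjusted p = 0.0156), a call lost without 6 h replicate 3 or 9 h replicate 3 (adjusted p = 0.0686 and 0.0573) and with the trend removed (-0.07, adjusted p = 0.317).

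The glucocorticoid target genes had 7 of 27 members called higher (25.9%, against 13.2% of all genes) and 0 lower, with a median of 0.27. This count fell to 4 after quantile or cyclic loess scaling, 1 after median scaling, 4 without 6 h replicate 2 and 3 without 6 h replicate 3. Hif3a rose by 1.39 (SE 0.12, adjusted p = 2.17e-05) from levels of -4.25, -3.93 and -4.33, and by 0.89 with the trend removed. Gadd45g, a stress sensor related to Gadd45a, rose by 0.51 (SE 0.12, adjusted p = 0.0134) to 2.93, 2.87 and 2.87, above all other arrays; without 6 h replicate 3 it read 0.41 (adjusted p = 0.0597), and after median scaling 0.30 (adjusted p = 0.0963). Ddit4, an inhibitor of mTOR signalling, rose by 0.61 (SE 0.15, adjusted p = 0.0146), a call lost after median scaling (adjusted p = 0.0573) and without 9 h replicate 3 (adjusted p = 0.0541). Its mean was 0.182 at 0.5 h, 0.915 at 3 h, -0.322 at 6 h and 0.290 at 9 h, so it stayed below its 3 h level. Fkbp5, the steroid receptor co-chaperone commonly used as a marker of glucocorticoid action, read 2.40, 1.87 and 1.86 at 6 h and 1.93, 1.86 and 1.62 at 9 h and was not called (-0.24, SE 0.17, adjusted p = 0.359). Its highest levels were those of 3 h.

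Of 29 glycolysis and hypoxia genes, 3 (10.3%, against 13.2% of all genes) were called higher and 1 lower, with a median of 0.08. After median scaling 1 was higher and 9 lower, with a median of -0.13. Car9, the carbonic anhydrase that marks hypoxic cells, rose by 1.09 (SE 0.12, adjusted p = 0.000123), from -2.30, -2.06 and -2.32 to -1.25, -1.20 and -0.97, and stayed called under every alternative. Hmox1, haem oxygenase, rose by 0.36 (SE 0.07, adjusted p = 0.00584) and Egln3, a prolyl hydroxylase that marks HIF for decay, by 0.28 (SE 0.06, adjusted p = 0.00512), both lost after median scaling (0.15 and 0.07, adjusted p = 0.124 and 0.425). Among 24 oxidative stress genes 2 (8.33%, against 13.2% of all genes) were called higher and 1 (4.17%, against 7.45%) lower, and after median scaling 0 higher and 7 lower. Txnrd1, thioredoxin reductase, rose by 0.31 (SE 0.07, adjusted p = 0.00908), and its 3 other probes had the same sign; median scaling gave 0.10 (adjusted p = 0.303).

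Of 58 sensory neuron channels and receptors, 9 (15.5%) were called higher and 2 lower, close to the 13.2% of all genes called higher. Median scaling turned this to 2 higher and 10 lower, quantile and cyclic loess scaling gave 7 and 5, and without 6 h replicate 3 the counts were 4 and 0. Ptgir, the prostacyclin receptor of nociceptors, rose by 0.93 (SE 0.16, adjusted p = 0.00217) and Bdkrb2, the bradykinin B2 receptor, by 0.54 (SE 0.10, adjusted p = 0.00347), both with the 9 h arrays above all others; the values with the trend removed were 0.60 and 0.30. Kcns1, a silent potassium channel subunit, rose by 0.46 (SE 0.11, adjusted p = 0.0118; 0.25, adjusted p = 0.0834, after median scaling). Mrgprd of the nonpeptidergic nociceptors did not pass the test (0.15, SE 0.17, adjusted p = 0.573). Of 25 sensory neuron peptides and growth factors 3 (12%) were called higher, and 1 higher and 3 lower after median scaling. Among them was Gdnf, a survival factor for these neurons made mainly by glia, which rose by 0.66 (SE 0.13, adjusted p = 0.00512) to -0.74, -0.54 and -0.65.

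Some calls in neuronal lists rested on 1 probe of several. Of 34 synaptic vesicle and SNARE genes 5 (14.7%, against 13.2% of all genes) were called higher, 2 without 6 h replicate 3, and after median scaling 2 were higher and 6 lower. The call with the smallest p was Syt1, the calcium sensor of vesicle release (0.58, SE 0.07, adjusted p = 0.000298). Its 2 other probes read -0.11 (adjusted p = 0.471) and -0.34 (adjusted p = 0.0364), and the mean of its probes 0.04 (adjusted p = 0.682). Of 22 histone deacetylases and chromatin regulators 5 (22.7%, against 13.2% of all genes) were called higher, 1 without 6 h replicate 3, and after median scaling 1 was higher and 6 lower. Hdac4, a deacetylase that shuttles out of the nucleus, rose by 0.54 (SE 0.09, adjusted p = 0.00203) while its other probe read -0.47 (adjusted p = 0.0526). In the Bcl2 family and caspase genes, 4 of 31 (12.9%, against 13.2% of all genes) were called higher, and after median scaling 1 was higher and 8 lower. Tp53inp1, a stress-induced partner of p53, rose by 0.51 (SE 0.07, adjusted p = 0.000367), and the survival gene Bcl2 by 0.35 (SE 0.08, adjusted p = 0.00983; 0.14, adjusted p = 0.195, after median scaling). Over all called genes, 356 of 460 other probes had the same direction (77.4%, against 64.6% for uncalled genes).

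**Figure D5:**
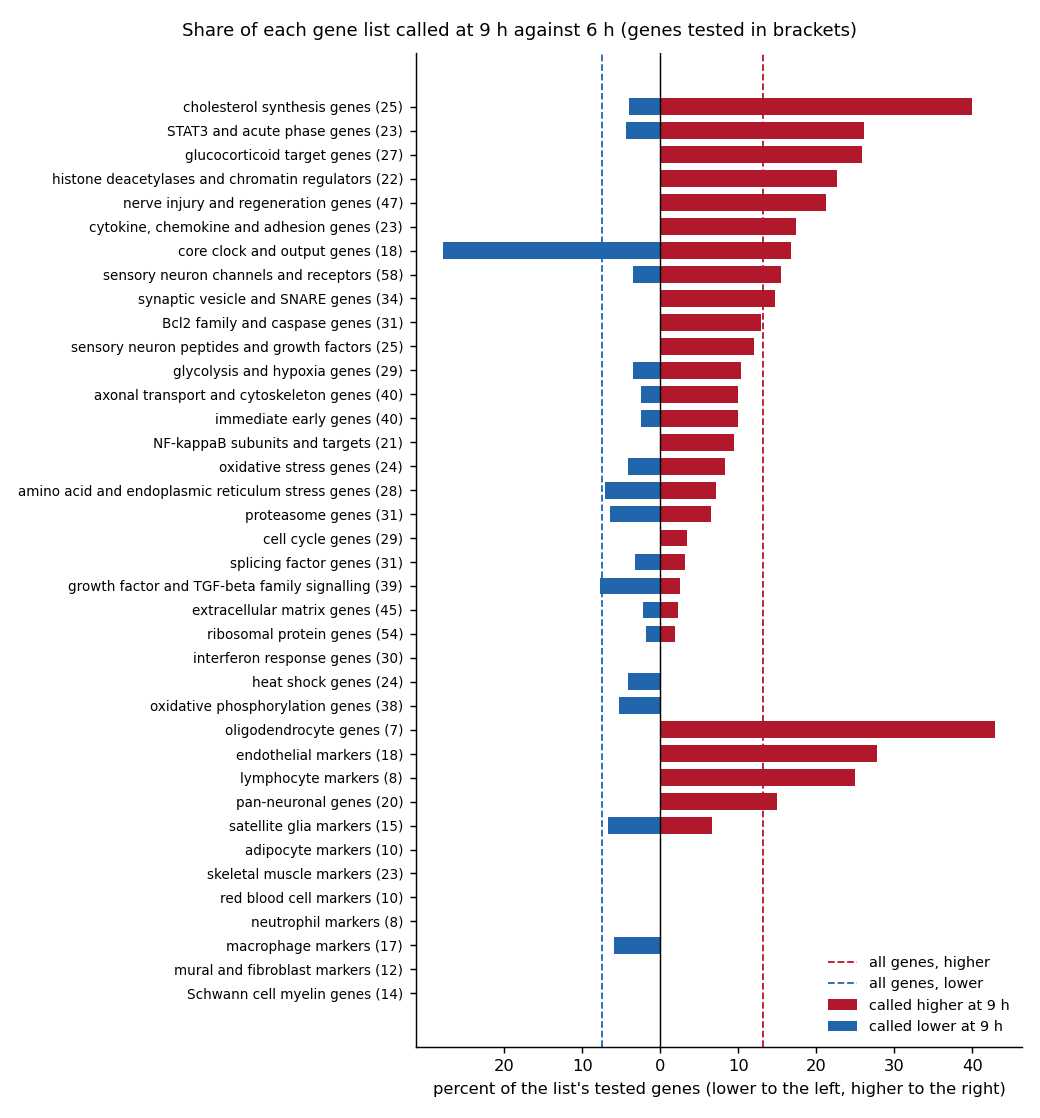
Bars give the percent of each list's tested genes (number in brackets) called higher (red, to the right) or lower (blue, to the left) at 9 h; dashed lines are the shares over all genes, 13.2% and 7.45%. The cholesterol list reaches 40% higher and the clock list 27.8% lower, and the interferon, muscle and Schwann cell lists have no called gene.

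Few housekeeping genes were called at this scaling, against 13.2% higher and 7.45% lower of all genes. Of 54 ribosomal protein genes 1 was called higher and 1 lower, of 38 oxidative phosphorylation genes 0 and 2, of 24 heat shock genes 0 and 1, of 31 proteasome genes 2 and 2, and of 31 splicing factor genes 1 and 1, with medians from 0.01 to 0.05. Median scaling moved the median of all genes below 0 and called 6177 of all 21310 genes lower and 1193 higher. The medians of these lists were then below 0, and 0 members were called higher. The members called lower were 22 ribosomal protein genes, 14 oxidative phosphorylation genes, 7 heat shock genes, 12 proteasome genes and 13 splicing factor genes. None of the 30 interferon response genes passed the limma threshold, and 0 had an unadjusted p under 0.05. Of 29 cell cycle genes 1 was called, the replication helicase gene Mcm5, which rose by 0.86 (SE 0.13, adjusted p = 0.000812) at dim levels, and the median of that list was -0.13; after median scaling 1 was called higher and 12 lower.

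Neuronal genes were well above background throughout: all 20 pan-neuronal genes on the array were tested. Their summed signal, in units of each array's 75th percentile, ran from 1124.3 to 1178.9 at 6 h. At 9 h it ran from 1251.5 to 1278.1, beside 1274.7 to 1338.4 at 0.5 h and 1166.4 to 1290.9 at 3 h. In bulk tissue fewer cells of a type and less RNA per cell cannot be told apart. Markers of other tissues varied from array to array. Summed signal of the 23 skeletal muscle markers was 71.3, 628.1 and 173.9 at 6 h and 257.1, 193.9 and 79.0 at 9 h, so 6 h replicate 2 stood apart. The mean level of the 8 neutrophil markers, each gene centred on its mean over the 12 arrays, was -0.17, -0.28 and 1.68 at 6 h and 0.14, 0.49 and 0.10 at 9 h, and the 10 red blood cell markers summed to 16.2, 16.1 and 31.7 and to 17.3, 17.9 and 18.1, with 6 h replicate 3 apart in both. No gene of these 3 lists was called, and their part in the other results was tested only by leaving those arrays out. With 6 h replicates 2 and 3 both left out, which leaves 1 array at 6 h that is assumed to vary like the rest, 1614 genes were called, 1033 higher and 581 lower; the injury list then had 7 called higher, the clock list 2 higher and 2 lower, the glucocorticoid list 1 and the cholesterol list 0.

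Glial and vascular markers differed within their lists. S100b, a calcium-binding protein of satellite glia and Schwann cells, fell by 0.97 (SE 0.10, 1.96-fold lower, adjusted p = 5.30e-05), from 1.12, 0.91 and 1.20 to 0.23, 0.15 and -0.08, while its 3 h levels of 0.00, -0.01 and -0.09 were as low. It stayed called under all alternatives. Fabp7, the lipid carrier of satellite glia, rose by 0.82 (SE 0.22, adjusted p = 0.0225), a call lost without 6 h replicate 1 or 2 or 9 h replicate 1 or 3 (adjusted p from 0.0601 to 0.0832). Its mean was 2.66 at 0.5 h, 2.81 at 3 h, 1.86 at 6 h and 2.68 at 9 h, so the rise was a return from a 6 h low. Of the 15 satellite glia markers S100b and Fabp7 were called, 1 each way (6.67%, against 13.2% higher and 7.45% lower of all genes). After median scaling 1 was higher and 4 lower. No Schwann cell myelin gene of 14 was called, against 20.6% of all genes. Of 7 oligodendrocyte genes tested 3 (42.9%, against 13.2% of all genes) were called higher, led by Mobp, a central myelin protein, with 1.57 (SE 0.24, adjusted p = 0.00112). Quantile or cyclic loess scaling called 2, and the median of 0.42 became 0.11. The summed signal of the 7 genes was 54.1, 51.0 and 54.1 at 6 h and 57.2, 51.1 and 52.4 at 9 h, so the times overlapped. Of 18 endothelial markers 5 (27.8%, against 13.2% of all genes) were called higher, and after median scaling 4 were higher and 2 lower. Flt1, a VEGF receptor, rose by 1.24 (SE 0.11, adjusted p = 2.37e-05), Robo4 by 1.09 (SE 0.15, adjusted p = 0.000535; 0.58 with the trend removed) and Eng, a TGF-beta co-receptor of endothelium, by 0.50 (SE 0.12, adjusted p = 0.0125; 0.33 with the trend removed). The other probe of Flt1 read 0.40 (adjusted p = 0.00686). The adhesion gene Cdh5 rose by 0.59 (SE 0.09, adjusted p = 0.000673; 0.34 with the trend removed) on 1 probe while the other read -0.07 (adjusted p = 0.898). The summed signal of the endothelial markers was 24.5, 25.8 and 26.0 at 6 h and 26.4, 28.9 and 26.1 at 9 h, so the groups lay next to each other without overlap. C1qb, a complement gene of macrophages, fell by 0.55 (SE 0.14, adjusted p = 0.0187), lost without 6 h replicate 2 or 9 h replicate 3 (adjusted p = 0.0663 and 0.0684). Of 17 macrophage markers it was the only member called (5.88%, against 7.45% of all genes called lower). The median of that list was -0.19, and 4 of its differences were above 0.

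The genes with the largest increases were mostly dim. The 12 largest among genes with a proper symbol ran from 2.09 (Itga2, an integrin chain) to 2.66 (Cyp4a1, a fatty acid hydroxylase under PPAR alpha). Against 51.0% of the genes called higher, the 9 h arrays exceeded all others for all of these 12 but Zscan10. Cyp4a1 was the brightest of them: it read -0.54, -0.71 and -0.58 at 0.5 h, -2.20, -1.81 and -2.20 at 6 h and 0.58, 0.43 and 0.76 at 9 h (SE 0.13, 6.32-fold, adjusted p = 1.88e-06; probe at chr5:135915621-135915680). It stayed called under all alternatives.

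Among the 12 largest decreases were genes whose 3 h levels were as low as or lower than those of 9 h. Gclm, the regulatory subunit of glutathione synthesis, is an example. Its levels were -4.15, -3.94 and -4.01 at 0.5 h, -6.32, -6.22 and -6.63 at 3 h, -3.94, -4.05 and -3.56 at 6 h and -5.80, -5.73 and -6.05 at 9 h. The 0.5 h and 6 h arrays lay together and the 3 h and 9 h arrays lay lower. Its difference of -2.01 (SE 0.14, adjusted p = 8.61e-06) became -0.50 (adjusted p = 0.0288) with the GC and level trend removed, and its probe holds 15% G and C. Ptpn12, a tyrosine phosphatase, and Adamts1, a matrix protease, with probes of 16.7% G and C, followed the same course (-1.58 and -1.14) and lost the call with the trend removed (-0.24 and -0.35).

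Other genes kept the same course at ordinary GC content. Serpinb6b, a protease inhibitor gene, read 1.27, 1.28 and 1.32 at 6 h and 0.11, 0.04 and -0.02 at 9 h (difference -1.25, SE 0.06, adjusted p = 2.22e-06), beside 1.12 to 1.30 at 0.5 h and -0.26 to -0.14 at 3 h; its probe holds 43.3% G and C, and it stayed called under all alternatives. The kinase gene Cdc2l1 (now Cdk11b) fell by 1.31 (SE 0.11, adjusted p = 2.51e-05) and Brwd3, a bromodomain gene, by 1.13 (SE 0.11, adjusted p = 6.00e-05), in the same pattern. The 3 h arrays shared a slide with no other time, so this alternation between times cannot be told apart from one between slides. Lnx2, a ubiquitin ligase that binds Numb, differed from these: it fell by 1.39 (SE 0.13, adjusted p = 3.28e-05) to -3.72, -4.05 and -3.81, below all other arrays, as did Dbp and Nr1d1.

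Some genes were above background at 1 of the times only. By the scanner's flag 361 gene names had signal well above background on each 9 h array and on none of 6 h, and 140 the other way round. A further 5969 names passed that flag on each of these 6 arrays but not on all 12. The 0.5 h arrays had 63.3 to 67.6% of probes well above background, against 83.2 to 84.9% at 6 h and 84.9 to 85.4% at 9 h. These genes were not tested here. With the requirement limited to all arrays of 6 h or all of 9 h, 28815 genes were tested and 5243 called higher and 1744 lower.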

How the data were processed

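One-colour Cy3 arrays measured total RNA of 12 ganglion samples. Agilent's Feature Extraction software (10.5.1.1, per the file headers) gave 1 processed intensity per spot on a linear scale after its own background subtraction, and the authors deposited these intensity values without a stated scaling between arrays. Coordinates are of rn4, per the file headers. Here control spots and 76 to 218 outlier spots per array were left out, log2 intensity minus each array's 75th percentile was taken, spots of a probe were averaged, and probes not well above background on all 12 arrays and 167 chemosensory receptor names were dropped. Each gene name kept its brightest probe. limma 3.58.1 (R 4.3.3) fitted 4 time means on 12 arrays. No spot was saturated, and the number of arrays limits the precision. Outlier spots left 86 values missing in 85 genes, which were fitted without them.

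The genes named are the 12 largest called changes each way with a proper symbol, up to 4 called members each way of each of 38 lists, and 30 genes of interest (132 in all), described here in part; 7 others are named after their values were seen. The comparison and lists were chosen with earlier results of these data known, and lists are given by counts, not tested as sets. Accessions of 9049 genes (42.5%) matched current symbols. The fit was tested on simulated data. Same-numbered replicates were checked for pairing (correlations of deviations 0.071, 0.143 and -0.001) and are not treated as pairs. Alternatives covered background, scaling, filter, probe choice, arrays used, blocks, weights, variance model and each array left out. Some results are not reported here.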

Additional observations from a re-analysis of the deposited data

How the results depend on the processing

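The counts of genes called (4391, with 2804 higher and 1587 lower) depended on the processing. Normexp gave 319, 81 and 238, median scaling 7370, 1193 and 6177, and slide as a random block 7792, 5135 and 2657. The slide block had a correlation within slides estimated below 0, at -0.222, and a median SE of 0.068 in place of 0.089. Each slide held arrays of 1 time only, so that block cannot separate slide from time. Quantile scaling called 1868 higher and 2668 lower. Requiring signal on all arrays of 6 h or of 9 h gave 6987 with 5243 higher, and no filter 9173 with 7396 higher, where more genes were tested. The first of these filters lets genes in through the time at which they are high, so its split partly follows from the filter. Leaving out 1 array gave 2749 to 4883 called, 1710 to 3179 higher and 1039 to 1704 lower, the lowest without 6 h replicate 3. Alternatives chosen after seeing the data gave 1320, 596 and 724 among genes above the median level, 719, 516 and 203 at a difference of at least 1, and 1614, 1033 and 581 without 6 h replicates 2 and 3. With the replicate number as a block, 3792 genes were called, 2428 higher and 1364 lower; the numbers did not pair the samples (correlations 0.071, 0.143 and -0.001). The sign turned after median scaling for Psma4 (-0.0164) and Tuba4a (-0.0009), after quantile scaling for Nefm (-0.0015), Ermn (-0.0488) and Lck (-0.0078), and with the GC and level trend removed for Arrdc2 (-0.0037), Ucn (-0.0284) and Lck (-0.12). The cause was not tested. Of the 4391 calls, 300 were made under all 26 alternatives planned and 1922 under all but normexp. Depth is not a measure of these arrays; the dimmest of 4 bins of genes had the most calls, 25.5% higher and 6.89% lower.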
